A study of Mus musculus with 21 samples.

Results

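The clathrin, adaptor, coat and endosomal sorting genes of the mouse cortex were compared between head-impacted and sham mice. The members were taken by a rule on gene symbols, which was set with earlier results of these data known. It takes clathrin chains, AP-1 to AP-4 adaptor subunits, dynamins, endophilins, amphiphysins, Picalm, COPI and COPII coat subunits, Sec22 and Sec61 to Sec63 genes, Vps-numbered genes, Chmp genes, sorting nexins and exocyst subunits. This rule took 101 of the 5544 genes in the deposited table. Applied to GENCODE on GRCm38 (mm10), it takes 154 protein-coding genes and 3 pseudogenes. All 101 members are protein-coding, and 53 protein-coding genes that the rule takes were not in the table used here. Vps35l carries a retromer-like name but belongs to the related retriever complex, and it was kept in the retromer class by its symbol.

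RNA-seq libraries were made from the cortex of 21 male C57BL/6 mice, aged 12 weeks by the labels, with 1 library per mouse. The 10 sham mice are called sham 1 to 10, and the 11 mice given high-frequency head impacts (HF-HI) are called HF-HI 1 to 11. Impacts were given to the head under isoflurane on successive days, and the sham group went through the same procedure up to the impact itself. Cortex was taken 24 h after the last impact, as whole tissue without sorting of cells. Values are variance-stabilized and lie on a log2 scale, so a difference of 1 would be a doubling for a gene with many reads, and differences of genes with few reads are shrunk.

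Membrane proteins leave the cell surface in clathrin-coated vesicles. Clathrin heavy and light chains build the cage, AP-2 links it to cargo and lipid, endophilin and amphiphysin bend the neck, and dynamin cuts it. Neurons use this machinery to retrieve synaptic vesicle membrane after release and to take glutamate receptors off the postsynaptic surface. What has been taken up reaches endosomes, where retromer and sorting nexins return cargo, the HOPS, CORVET, GARP and EARP tethers capture vesicles or drive fusion, and the ESCRT complexes sort ubiquitinated cargo into internal vesicles on the way to lysosomes. COPII coats carry new proteins out of the endoplasmic reticulum (ER), COPI returns material from the Golgi, and the exocyst tethers secretory vesicles at the plasma membrane.

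The promoters of 5 members are shown because the results turn on these genes: Dnm1 and Snx3 had the largest increases, Cltb moved against the other clathrin chains, and Sec23a and Sec24c, partners in the inner COPII coat, moved in opposite directions. Each sequence is the RefSeq window on GRCm38.p6 from 250 bases before to 50 bases after the annotated start. Capitals mark every GC box (GGGCGG) and every cyclic AMP response element (CRE, TGACGTCA) found on either strand. These genes and motifs were picked after the values had been seen.
Dnm1: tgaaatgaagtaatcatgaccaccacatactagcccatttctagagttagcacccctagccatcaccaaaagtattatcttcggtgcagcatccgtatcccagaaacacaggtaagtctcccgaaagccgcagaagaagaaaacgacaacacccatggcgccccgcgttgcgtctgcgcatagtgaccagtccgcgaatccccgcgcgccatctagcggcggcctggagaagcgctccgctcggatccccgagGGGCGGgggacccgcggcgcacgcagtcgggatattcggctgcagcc
Snx3: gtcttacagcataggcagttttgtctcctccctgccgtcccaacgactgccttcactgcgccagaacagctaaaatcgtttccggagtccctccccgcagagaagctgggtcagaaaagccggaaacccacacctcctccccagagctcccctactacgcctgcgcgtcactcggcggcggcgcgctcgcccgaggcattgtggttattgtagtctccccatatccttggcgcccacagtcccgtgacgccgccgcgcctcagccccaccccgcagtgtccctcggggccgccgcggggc
Cltb: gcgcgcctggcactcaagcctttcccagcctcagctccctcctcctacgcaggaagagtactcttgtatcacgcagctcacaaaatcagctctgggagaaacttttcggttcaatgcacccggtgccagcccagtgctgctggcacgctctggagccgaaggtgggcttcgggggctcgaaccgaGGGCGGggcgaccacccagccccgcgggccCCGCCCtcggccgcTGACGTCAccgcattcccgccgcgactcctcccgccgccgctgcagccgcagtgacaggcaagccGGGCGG
Sec23a: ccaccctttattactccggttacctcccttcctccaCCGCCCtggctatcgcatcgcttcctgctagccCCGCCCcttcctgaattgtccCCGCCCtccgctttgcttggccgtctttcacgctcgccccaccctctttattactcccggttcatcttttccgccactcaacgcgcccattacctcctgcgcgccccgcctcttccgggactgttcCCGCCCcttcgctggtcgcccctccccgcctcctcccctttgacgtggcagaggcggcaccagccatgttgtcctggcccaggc
Sec24c: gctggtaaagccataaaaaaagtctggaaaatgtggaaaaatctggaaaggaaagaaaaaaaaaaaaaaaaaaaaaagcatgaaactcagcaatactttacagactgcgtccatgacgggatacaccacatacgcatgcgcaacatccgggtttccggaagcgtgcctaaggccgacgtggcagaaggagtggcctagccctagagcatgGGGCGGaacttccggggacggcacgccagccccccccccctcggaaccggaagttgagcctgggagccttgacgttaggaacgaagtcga

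The windows lie at chr2:32353280-32353579 on the minus strand, chr10:42501804-42502103 on the plus strand, chr13:54611324-54611623 on the minus strand, chr12:59011968-59012267 on the minus strand and chr14:20674071-20674370 on the plus strand. Windows were matched for 85 of the 101 members and 4329 genes of the table. The GC box was in 69.4% of the members' windows and 69.9% of all windows, and the CRE in 4.71% and 3.95%. The E-box CACGTG was in 12.9% of the members' windows and 10.7% of all windows, and the CCAAT box (CCAAT), for which the shares lay farthest apart, in 27.1% and 37.3%. Both strands were searched, and a match of one motif may overlap that of another. These shares are descriptions of the letters in these windows only.

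Of the 101 members, 27 were higher in HF-HI and 44 lower at a Benjamini-Hochberg adjusted p under 0.05 over all genes in limma's moderated test, and 30 did not pass. Over all genes the shares were 32.6% higher and 33.6% lower, so the members called made up 70.3% where 66.3% of all genes passed. Higher members were thus a smaller share (26.7%) and lower members a larger share (43.6%) than in the table, and this difference in shares was not tested. The median difference (HF-HI minus sham) was -0.065 on the log2 scale for the members and -0.0086 for all genes, and single members ran from -0.35 to 0.60. The sham and HF-HI values did not overlap for 13 members, where 13.5% of all genes showed none: 6 lay above sham, against 8.71% of all genes, and 7 below, against 4.76%. Among the members, the COPII coat genes went mostly up and the ESCRT, exocyst and COPI genes mostly down. The clathrin chains, the AP-2 subunits and the tethers held genes of both directions.

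**Figure D1:**
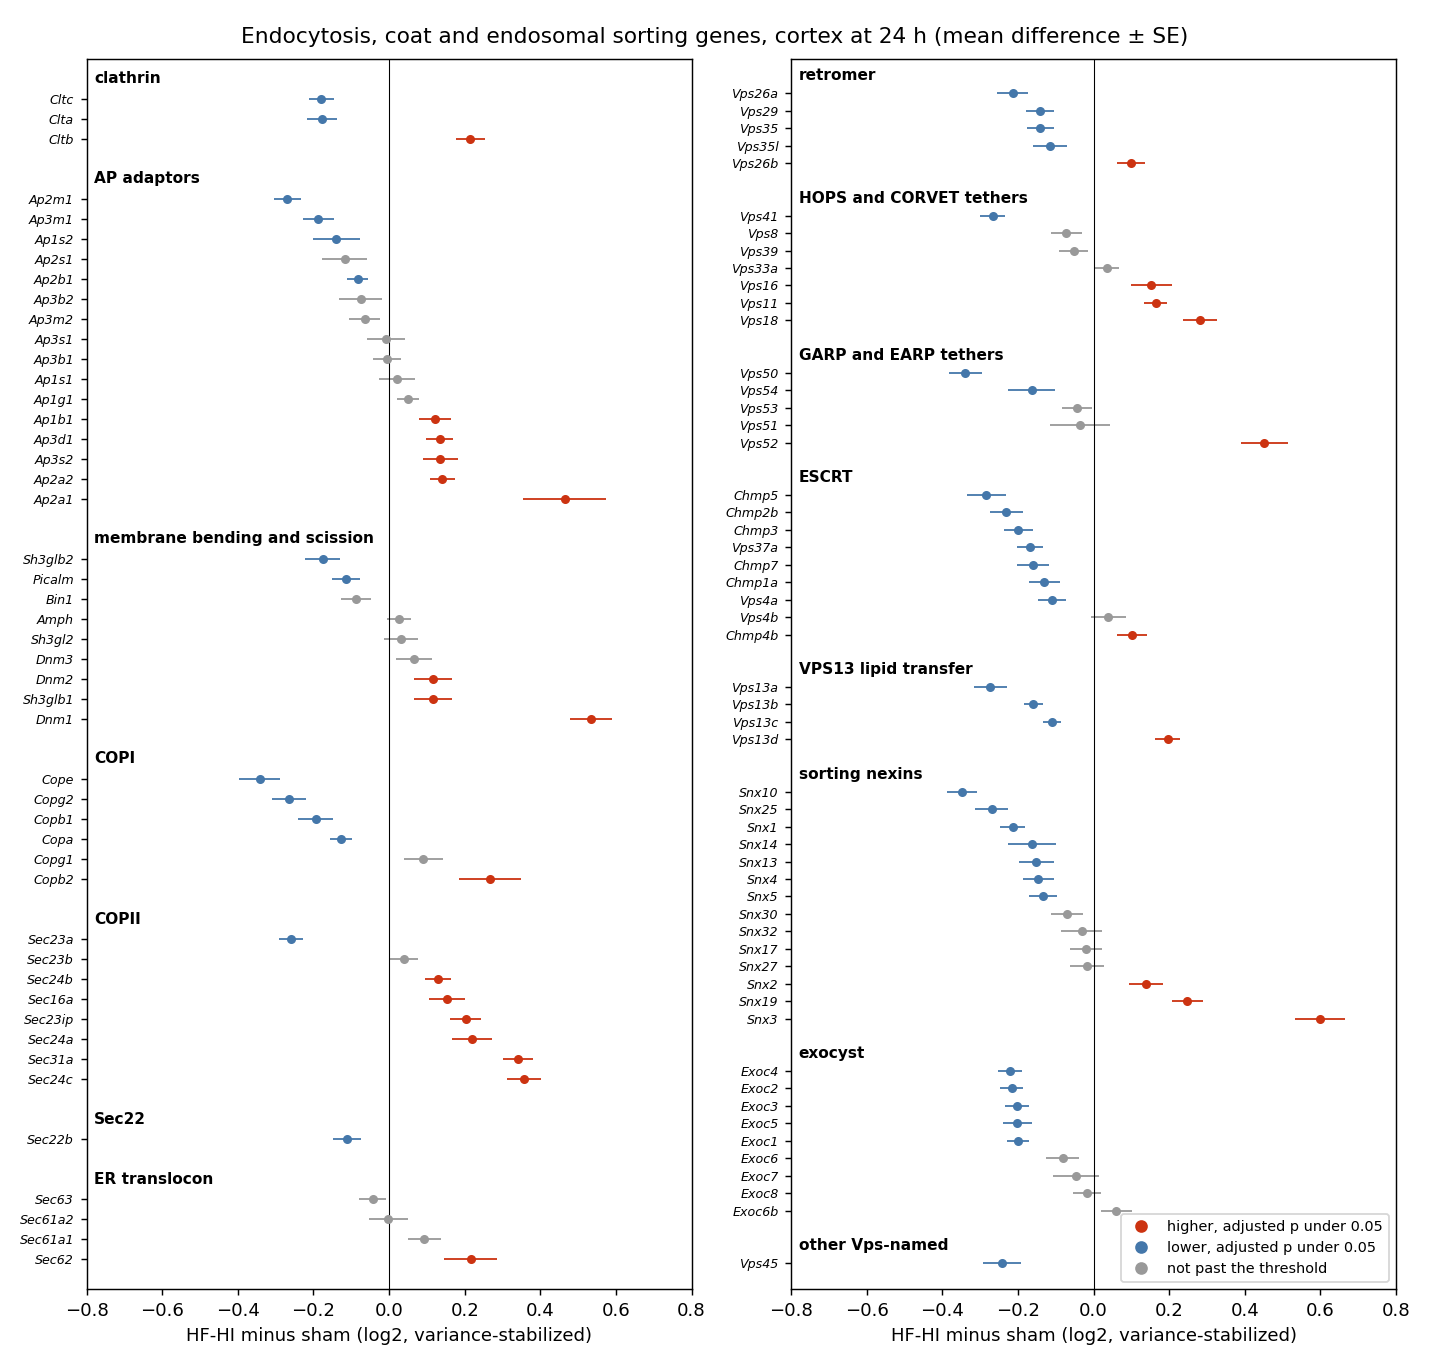
Mean difference between HF-HI and sham for each of the 101 members, by class, in log2 units of the variance-stabilized values; bars are standard errors, red points are higher and blue points lower at an adjusted p under 0.05, and gray points did not pass. Snx3 and Dnm1 lie farthest to the right, at 0.60 and 0.53, and Snx10 farthest to the left, at -0.35.

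The GC content of the genes bears on these values. The slope of each library with the GC content of the genes was taken on each gene's deviation from its mean over all libraries. These slopes cancel over the libraries, so their signs are relative, and only the gap between the groups carries information. The slope was -0.11 ± 0.0775 log2 units per 10% GC in sham (SD, n = 10). It was higher in HF-HI, at 0.096 ± 0.0602 (SD, n = 11) (permutation test, two-sided, p = 2e-05). The differences of the members followed GC content, with Spearman's rho of 0.393 over the 101 members, which share the same libraries. Over the 5539 genes with a GC content rho was 0.480. Among the 50 members under the members' median GC content 7 were higher and 32 lower, and among the other 51 members 20 were higher and 12 lower. With the GC trend of each library removed, 24 members were higher and 47 lower (29.2% and 31% of all genes), and 18 of the higher and 34 of the lower members were called the same way in both fits. This removal would also take away any biological difference that follows GC content, so both values are given for the named genes that lost their call. The removal ended 19 of the 71 member calls. Over all genes, 1332 of the 1810 higher and 1313 of the 1864 lower calls were made in both fits. With library medians set equal, 18 members were higher and 53 lower (26.1% and 42.9% of all genes), and after quantile normalization 20 and 51 (27.9% and 40.4%).

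Sham 1 to 3 stood apart from the other sham libraries for 11 members, with no overlap between the values of these 3 and the other 7, and for 444 genes of the table (8.01%, against 10.9% of the members). These 3 were noticed in the values and are not marked by any label. Leaving out sham 1 to 3, a choice made after the values were seen, gave 18 higher and 41 lower members, where 29.8% of all genes were higher and 30.5% lower. With all libraries kept, 32.6% of all genes were higher and 33.6% lower, the shares beside which the marker counts stand. Among the neuron markers, 10 of 15 were higher in HF-HI and 1 lower. The mean level over this list ran from 11.56 to 11.77 in sham and from 11.87 to 12.00 in HF-HI. The astrocyte list had 7 higher and 2 lower of 13, with means of 11.29 to 11.53 in sham and 11.40 to 11.53 in HF-HI. Of 9 oligodendrocyte markers 3 were higher, and of 2 microglia and 2 endothelial markers 1 of each was higher and 1 lower. The single progenitor marker and the 2 choroid plexus markers in the table did not pass. In this bulk tissue, fewer cells of a type and less RNA per cell cannot be told apart, and the part of cell composition in the members' differences was not tested.

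**Figure D2:**
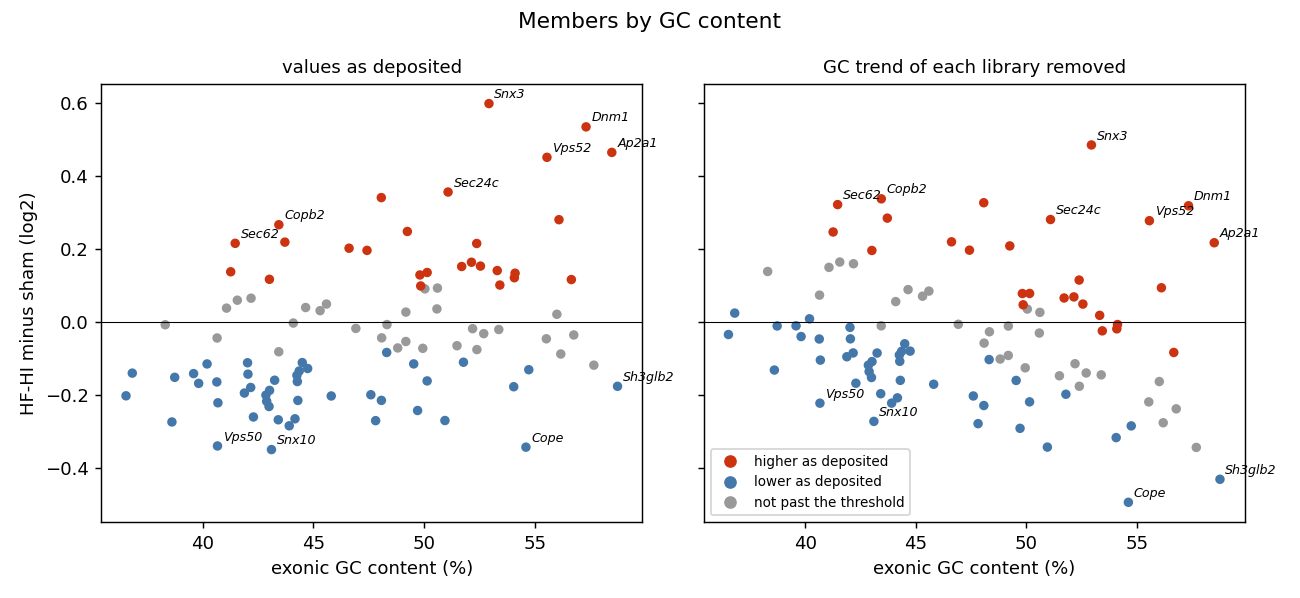
Difference between HF-HI and sham (log2) of each member against the GC content of its exons, for the values as deposited and with the GC trend of each library removed; colors give the call on the deposited values in both panels. The higher members lie mostly above 45% GC on the left, and Snx3, at 0.60 as deposited and 0.48 without the trend, is the highest point in both panels.

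The clathrin chains divided. Cltc, the heavy chain that forms the legs of the cage, and Clta, a light chain, were lower in HF-HI, and Cltb, the other light chain, was higher. Cltb (ENSMUSG00000047547, chr13:54592401-54611344 on the minus strand) lay between 9.95 and 10.21 in sham (median 10.06) and between 10.19 and 10.49 in HF-HI (median 10.25). The groups met only at their edges. The difference was 0.22 (SE 0.0381, limma adjusted p = 3.7e-05). Clta (ENSMUSG00000028478, chr4:44004452-44032846 on the plus strand) lay between 10.32 and 10.65 in sham (median 10.51) and between 10.23 and 10.46 in HF-HI (median 10.32), a fall that left the ranges overlapping (difference -0.18, SE 0.0389, limma adjusted p = 3.89e-04). Cltc ran from 14.08 to 14.36 in sham and from 13.93 to 14.12 in HF-HI, a difference of -0.18 (limma adjusted p = 6.16e-05). Removing the GC trend left all 3 chains called, at 0.12 for Cltb, -0.32 for Clta and -0.084 for Cltc.

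Because the light chains are measured in the same library, their difference does not depend on how libraries were scaled. Clta minus Cltb lay between 0.35 and 0.53 in sham, with a median of 0.43, and between -0.029 and 0.13 in HF-HI, with a median of 0.043. No HF-HI library reached the lowest sham library. The balance moved by -0.39 toward Cltb (two-sided permutation test, p = 1e-05, the least value 100000 resamples can give, adjusted p = 3.8e-05 over 19 pairs). The shift was -0.43 with the GC trend removed and -0.40 without sham 1 to 3. A balance of this kind compares changes and gives no order of the levels of the 2 genes, which were not scaled for transcript length.

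The AP-2 complex, which binds cargo, lipid and clathrin at the plasma membrane, also held both directions. As deposited, its large alpha subunits rose and its beta and mu subunits fell. Ap2m1, the mu subunit that recognizes tyrosine-based sorting signals, lay between 12.51 and 12.84 in sham (median 12.73) and between 12.33 and 12.55 in HF-HI (median 12.46). The groups overlapped only between 12.51 and 12.55. Its difference was -0.27 (SE 0.0359, limma adjusted p = 1.03e-06), and -0.34 with the GC trend removed. Ap2a1, an alpha subunit, had the widest spread of all members named here, from 9.56 to 10.40 in sham and from 9.92 to 10.80 in HF-HI. Its difference of 0.46 (SE 0.110, limma adjusted p = 8.05e-04) was therefore carried by overlapping groups. With the GC trend removed the difference of Ap2a1 was 0.22 (limma adjusted p = 0.0336). Ap2a2 rose by 0.14 (limma adjusted p = 8.76e-04), which was 0.018 and not past the threshold (adjusted p = 0.677) with the GC trend removed. Ap2b1 fell by 0.083 (limma adjusted p = 0.00913), and without sham 1 to 3 its difference was -0.061 (adjusted p = 0.0732). Ap2s1, the small subunit, did not pass as deposited (-0.12, limma adjusted p = 0.0821), passed without sham 6 (adjusted p = 0.0491) or sham 10 (adjusted p = 0.0267), and was -0.34 with the GC trend removed (adjusted p = 6.05e-06).

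Of the other adaptor subunits, which serve the Golgi and endosomes, 1 of 4 AP-1 genes was higher and 1 lower, and of 7 AP-3 genes 2 were higher and 1 lower as deposited. The only one of these 5 calls left with the GC trend removed was the lower one of Ap3m1, while Ap1b1 (-0.018, limma adjusted p = 0.643), Ap1s2 (0.025, adjusted p = 0.762), Ap3d1 (-0.0067, adjusted p = 0.836) and Ap3s2 (0.078, adjusted p = 0.117) missed the threshold. Ap3m1, the mu subunit of the complex that sorts cargo to lysosome-related organelles, ran from 9.31 to 9.65 in sham and from 9.19 to 9.39 in HF-HI (difference -0.19, limma adjusted p = 3.96e-04). The remaining AP-1 and AP-3 subunits lay between -0.14 and 0.14 as deposited. No AP-4 subunit was in the table. The share of calls in this class was sensitive to GC content, with 3 of the 16 adaptor genes higher and 7 lower once the trend was removed, where 5 were higher and 4 lower as deposited, and 1 higher and 3 lower genes were called the same way in both fits.

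Dnm1, the dynamin of synaptic vesicle retrieval, had the second largest increase of all members. Dnm1 (ENSMUSG00000026825, chr2:32308471-32353338 on the minus strand) lay between 12.79 and 13.25 in sham (median 13.05) and between 13.39 and 13.71 in HF-HI (median 13.54). The lowest HF-HI library was above the highest sham library. The difference was 0.53 (SE 0.0556, limma adjusted p = 3.5e-08), and 0.32 with the GC trend removed. The ubiquitous Dnm2 was close to the threshold (0.12, limma adjusted p = 0.0478), missed it in 13 of 21 leave-one-out fits, with adjusted p up to 0.0912, and turned to -0.083 (adjusted p = 0.102) with the GC trend removed. Dnm3 did not pass as deposited (0.065, limma adjusted p = 0.233) and was 0.16 (adjusted p = 0.00389) with the trend removed.

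The balance of Dnm1 over each of the other dynamins shifted as well. Dnm1 minus Dnm2 ran from 4.11 to 4.78 in sham and from 4.72 to 5.11 in HF-HI, a shift of 0.42, and Dnm1 minus Dnm3 ran from 1.23 to 1.73 and from 1.64 to 2.18, a shift of 0.47 (permutation tests, two-sided, adjusted p = 3.8e-05 and 9.5e-05). In both balances the groups overlapped by less than 0.1. Removing the GC trend left both shifts past the threshold, at 0.40 and 0.16.

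As deposited, the endophilin, amphiphysin and Picalm genes changed less than Dnm1. Sh3glb2, an endophilin of the B type, fell from a sham median of 10.76 to 10.59 in HF-HI, with ranges of 10.55 to 10.89 and 10.44 to 10.71 (difference -0.18, limma adjusted p = 0.00168), and this was -0.43 with the GC trend removed (adjusted p = 3.48e-09). Its paralog Sh3glb1 was barely past the threshold (0.12, limma adjusted p = 0.0439), missing it in 11 of 21 leave-one-out fits and without sham 1 to 3 (0.080, adjusted p = 0.213). With the GC trend removed Sh3glb1 was 0.20 (limma adjusted p = 2.94e-04). Sh3glb1 minus Sh3glb2 moved by 0.29 (permutation test, two-sided, adjusted p = 0.0117), by 0.63 with the GC trend removed, and by 0.22 (adjusted p = 0.0679) without sham 1 to 3. Picalm, a clathrin assembly protein near a risk locus of Alzheimer's disease, was -0.11 (limma adjusted p = 0.00886) as deposited and 0.0090 (adjusted p = 0.768) with the GC trend removed. The endophilin A gene Sh3gl2 (0.031, limma adjusted p = 0.556) and the amphiphysin gene Amph (0.027, adjusted p = 0.455), which bring dynamin to the neck, did not pass. Bin1, the other amphiphysin gene, was -0.087 (limma adjusted p = 0.0617) as deposited and -0.28 (adjusted p = 2.19e-05) with the GC trend removed. Amph minus Bin1 moved by 0.11 (permutation test, two-sided, adjusted p = 0.0680), and by 0.26 (adjusted p = 6.33e-04) with that trend removed. Neither group of libraries stood apart for these genes.

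Among the members, the COPII coat genes showed the clearest rise of any class. Of these 8 genes 6 were higher and 1 lower as deposited and also with the GC trend removed, 5 of the higher genes being the same. The GTPase genes of this coat, Sar1a and Sar1b, lie outside the symbol rule and were lower, as given below. The inner coat is made of Sec23 and the cargo-binding Sec24 proteins, and Sec31a is part of the outer cage. Sec24c (ENSMUSG00000039367, chr14:20674308-20694852 on the plus strand) lay between 8.68 and 8.98 in sham (median 8.90) and between 9.02 and 9.42 in HF-HI (median 9.26). Its groups did not overlap, and the difference was 0.36 (SE 0.0449, limma adjusted p = 5.01e-07). Sec31a lay between 9.40 and 9.79 in sham (median 9.59) and between 9.84 and 10.03 in HF-HI (median 9.92), again without overlap (difference 0.34, SE 0.0403, limma adjusted p = 2.08e-07). Both were past the threshold without the GC trend, at 0.28 and 0.33. Sec24a, with ranges of 8.51 to 8.94 and 8.77 to 9.13, rose by 0.22 (limma adjusted p = 0.00109).

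Sec23a went the other way. Sec23a (ENSMUSG00000020986, chr12:58958383-59012017 on the minus strand) lay between 10.77 and 10.95 in sham (median 10.92) and between 10.54 and 10.76 in HF-HI (median 10.61). The highest HF-HI library lay just under the lowest sham library. The difference was -0.26 (SE 0.0308, limma adjusted p = 2.12e-07), and -0.17 with the GC trend removed. Its paralog Sec23b was not called (0.040, limma adjusted p = 0.359). Sec23a minus Sec23b ran from 2.07 to 2.27 in sham and from 1.80 to 2.02 in HF-HI without overlap, a shift of -0.30 (permutation test, two-sided, adjusted p = 3.8e-05), and -0.26 with the GC trend removed.

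The COPI coat, which works between the Golgi and the ER, had 4 of 6 subunits lower and 1 higher, both as deposited and with the GC trend removed. Cope, the epsilon subunit (ENSMUSG00000055681, chr8:70302518-70312993 on the plus strand), lay between 9.23 and 9.64 in sham (median 9.38) and between 8.84 and 9.20 in HF-HI (median 9.12). All HF-HI libraries lay below all sham libraries. The difference was -0.34 (SE 0.0548, limma adjusted p = 1.1e-05), -0.49 with the GC trend removed and -0.27 without sham 1 to 3, which held the 3 highest values. Copg2, a gamma subunit, ran from 9.82 to 10.12 in sham and from 9.48 to 9.86 in HF-HI (difference -0.26, limma adjusted p = 2.12e-05), and Copb1, the beta subunit, fell by 0.19 (limma adjusted p = 8.59e-04). Copg1 minus Copg2 ran from 1.48 to 1.86 in sham and from 1.91 to 2.17 in HF-HI without overlap, a shift of 0.36 (permutation test, two-sided, adjusted p = 3.8e-05).

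Copb2, the beta-prime subunit, was the COPI gene called higher, and the call rested on sham 1 to 3. Its values were 8.98 to 9.21 in sham 1 to 3, 9.45 to 9.79 in the other sham libraries and 9.56 to 10.03 in HF-HI. The difference was 0.27 with all libraries (limma adjusted p = 0.00617) and 0.12 (adjusted p = 0.0703) without these 3. Sec62, which assists the Sec61 channel of the ER, had the same pattern: 10.36 to 10.64 in sham 1 to 3, 10.68 to 11.09 in the other sham libraries and 10.88 to 11.24 in HF-HI. Its difference was 0.22 (limma adjusted p = 0.00961) and became 0.10 (adjusted p = 0.112) without them. The other translocon genes were not called, with differences of 0.093 for Sec61a1 (limma adjusted p = 0.0626), -0.0026 for Sec61a2 (adjusted p = 0.967) and -0.044 for Sec63 (adjusted p = 0.294). Sec61a1 passed without sham 5, sham 6 or HF-HI 11 (adjusted p = 0.0269, 0.0307 and 0.00841). Sec22b, a SNARE of ER to Golgi transport, fell by 0.11 (limma adjusted p = 0.00903), which was -0.014 (adjusted p = 0.783) with the GC trend removed and -0.081 (adjusted p = 0.0618) without sham 1 to 3.

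**Figure D3:**
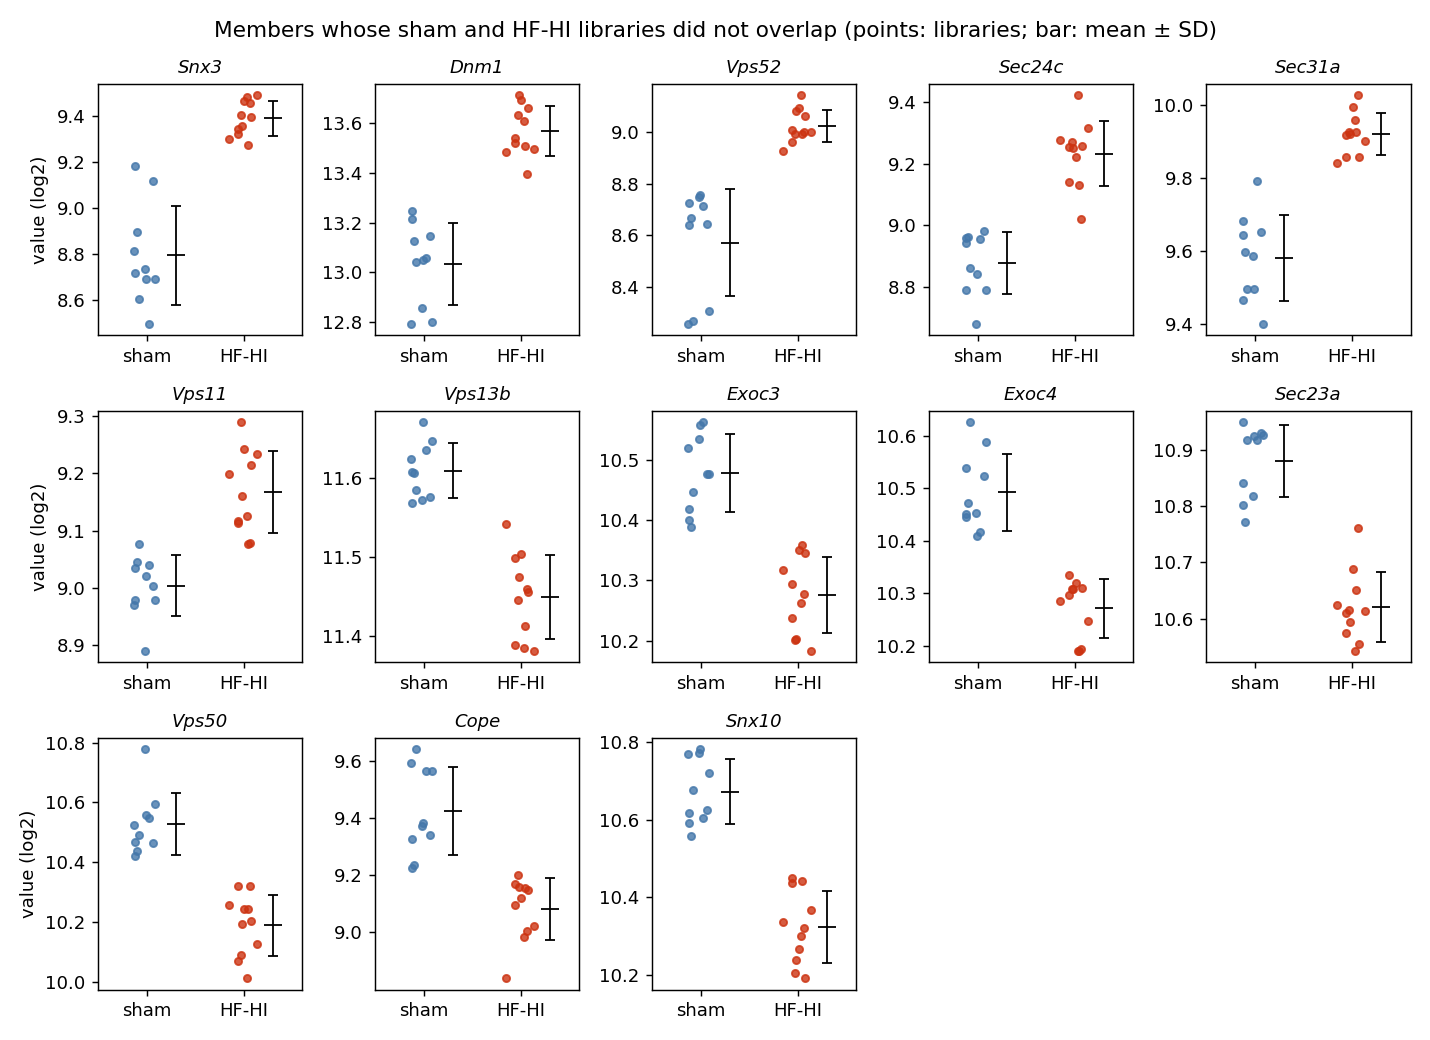
Variance-stabilized values (log2) of the 13 members whose groups did not overlap, 1 point per library, with the mean and SD beside each group of 10 sham and 11 HF-HI mice; each panel has its own axis, which does not start at 0. In Vps52, 3 sham libraries lie at 8.26 to 8.30, under the other 7 at 8.64 to 8.75, and all HF-HI libraries lie above both.

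Snx3 had the largest difference of all members. This nexin, a PX-domain protein that binds endosomal phosphoinositide, works with retromer in recycling cargo. Snx3 (ENSMUSG00000019804, chr10:42502030-42535381 on the plus strand) lay between 8.49 and 9.18 in sham (median 8.72) and between 9.27 and 9.49 in HF-HI (median 9.40). The sham libraries were spread over 0.7 of a log2 unit while the HF-HI libraries were tight, and the groups did not overlap. The difference was 0.60 (SE 0.0656, limma adjusted p = 7.4e-08), 0.48 with the GC trend removed and 0.56 without sham 1 to 3.

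Of the 30 protein-coding nexins that the rule takes, 14 were in the table, and these were more often lower. As deposited 7 were lower and 3 higher, and with the GC trend removed 8 and 3. In both fits 5 were lower and 3 higher. Snx10, a nexin of endosomal acidification and traffic, lay between 10.56 and 10.78 in sham (median 10.65) and between 10.19 and 10.45 in HF-HI (median 10.32). Its groups did not overlap, and its difference of -0.35 (SE 0.0394, limma adjusted p = 1.12e-07) was the largest fall among the members. Snx25 fell by 0.27 (limma adjusted p = 1.09e-05), with ranges of 9.26 to 9.56 and 8.96 to 9.31, and Snx19 rose by 0.25 (limma adjusted p = 1.36e-05), with ranges of 9.11 to 9.46 and 9.39 to 9.62. These 3 calls were kept with the GC trend removed, at -0.27, -0.28 and 0.21. Snx1 and Snx2, BAR-domain partners in the tubular coat of endosomes, moved apart: Snx1 minus Snx2 ran from 0.22 to 0.79 in sham and from -0.025 to 0.20 in HF-HI without overlap, a shift of -0.35 (permutation test, two-sided, adjusted p = 3.8e-05) and -0.47 with the GC trend removed.

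Retromer, the core complex that retrieves receptors from endosomes, had 3 of 4 core genes lower and 1 higher as deposited. Vps26a lay between 9.35 and 9.66 in sham (median 9.46) and between 9.18 and 9.45 in HF-HI (median 9.24). The groups overlapped over 0.1 of a log2 unit, and the difference was -0.21 (SE 0.0421, limma adjusted p = 1.19e-04) and -0.16 with the GC trend removed (adjusted p = 3.79e-04). Vps35, the scaffold mutated in a familial form of Parkinson's disease, was -0.14 as deposited (limma adjusted p = 0.00124) and -0.010 with the GC trend removed (adjusted p = 0.803). Vps29 was -0.14 (limma adjusted p = 0.00183) and -0.046 (adjusted p = 0.219) in the same fits. Vps26b was 0.099 (limma adjusted p = 0.0222) and 0.047 (adjusted p = 0.220). Only Vps26a of the core therefore kept its call in both fits.

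The balance of the alternative arms of retromer did hold. Vps26a minus Vps26b ran from -0.82 to -0.28 in sham and from -1.02 to -0.64 in HF-HI, a shift of -0.31 (permutation test, two-sided, adjusted p = 5.22e-04) that was -0.21 with the GC trend removed and -0.34 without sham 1 to 3. Vps35l, of the retriever complex, was -0.11 (limma adjusted p = 0.0296) and -0.16 (adjusted p = 0.00147) with the trend removed, and fell short without sham 1, sham 2, HF-HI 9 or HF-HI 11 (adjusted p = 0.0555, 0.0532, 0.0523 and 0.0566).

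**Figure D4:**
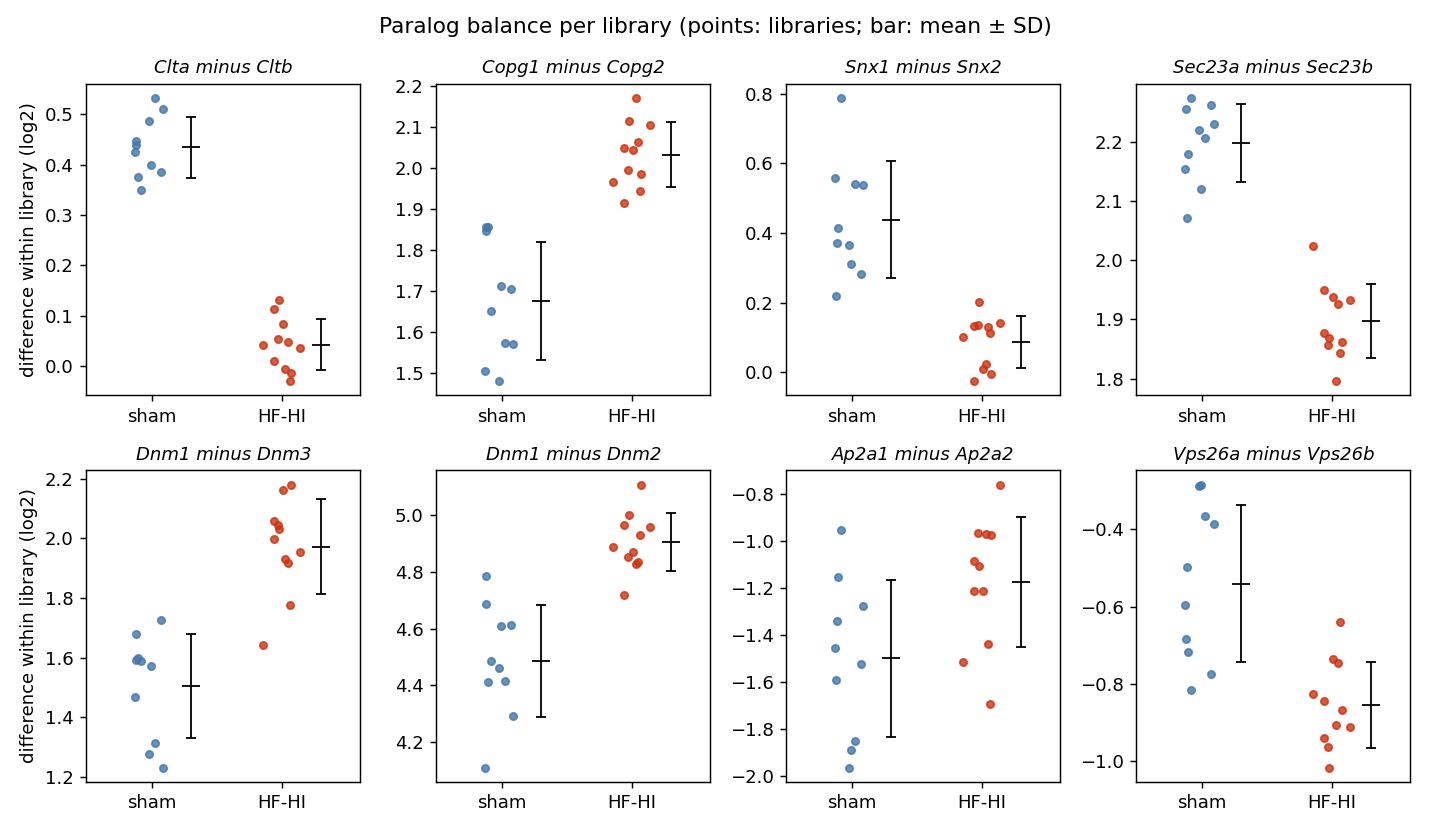
Difference between 2 paralogs within each library (log2), 1 point per library, with the mean and SD beside each group of 10 sham and 11 HF-HI mice; the panels are the 4 pairs whose groups did not overlap and the 4 next largest shifts, and the axes differ in range and need not start at 0. Clta minus Cltb falls from 0.35 to 0.53 in sham to -0.029 to 0.13 in HF-HI.

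Over the 30 pairs of paralogs listed, both genes of 19 pairs were in the table. The balance of 12 pairs shifted at an adjusted p under 0.05, of which 4 showed no overlap between groups. With the GC trend removed 12 pairs were called, and 9 were past it in both with the same sign. The shift of Vps4a minus Vps4b, the ATPases that take ESCRT filaments apart, was -0.15 (permutation test, two-sided, adjusted p = 0.00144). That of Ap1b1 minus Ap2b1, the beta subunits of the Golgi and plasma membrane adaptors, was 0.20 (adjusted p = 2.71e-04) and 0.084 (adjusted p = 0.0524) with the GC trend removed. The shifts of Ap2a1 minus Ap2a2 (0.32, adjusted p = 0.0451) and Ap1s1 minus Ap1s2 (0.16, adjusted p = 0.0455) were each lost in 14 of 21 leave-one-out tests, and in both pairs the groups overlapped widely.

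The tethers divided within their complexes. HOPS and CORVET, which drive fusion with late and early endosomes, share a core of Vps11, Vps16, Vps18 and Vps33a. Of the 7 genes of this class 3 were higher and 1 lower as deposited, and 2 and 3 with the GC trend removed. Vps8 (-0.13, limma adjusted p = 0.0115) and Vps39 (-0.091, adjusted p = 0.0235) were called lower only with the trend removed. Vps18 lay between 8.53 and 8.85 in sham (median 8.70) and between 8.77 and 9.10 in HF-HI (median 8.98) with some overlap (difference 0.28, SE 0.0452, limma adjusted p = 1.2e-05). Vps11 lay between 8.89 and 9.08 in sham (median 9.01) and between 9.08 and 9.29 in HF-HI (median 9.16), just without overlap (difference 0.16, limma adjusted p = 9.16e-05). With the GC trend removed these rises were smaller, 0.094 and 0.069, and still past the threshold (adjusted p = 0.0113 and 0.0378). Vps16 was 0.15 as deposited (limma adjusted p = 0.0169) and fell short with the trend removed (0.066, adjusted p = 0.275) and without sham 1 to 3 (0.075, adjusted p = 0.163). Vps33a, the remaining core gene, did not pass as deposited (0.036, limma adjusted p = 0.313) or with the trend removed (-0.030, adjusted p = 0.299). Vps41, the HOPS subunit that binds the late endosome, went down, from 10.87 to 11.17 in sham to 10.70 to 10.88 in HF-HI (difference -0.27, SE 0.0318, limma adjusted p = 2.18e-07), and was -0.20 with the GC trend removed.

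GARP and EARP share Vps51, Vps52 and Vps53 and differ in the last subunit, Vps54 at the Golgi and Vps50 at recycling endosomes. Vps50 (ENSMUSG00000001376, chr6:3498382-3603531 on the plus strand) lay between 10.42 and 10.78 in sham (median 10.51) and between 10.01 and 10.32 in HF-HI (median 10.20), without overlap (difference -0.34, SE 0.0445, limma adjusted p = 8.7e-07), and was -0.22 with the GC trend removed. Vps54 was -0.16 (limma adjusted p = 0.0221) and -0.046 (adjusted p = 0.430) with that trend removed. Vps52 (ENSMUSG00000024319, chr17:33955812-33967035 on the plus strand) went up. It was 8.26 to 8.30 in sham 1 to 3, 8.64 to 8.75 in the other sham libraries and 8.93 to 9.14 in HF-HI, so that all 11 HF-HI libraries were above both sets. The difference was 0.45 (SE 0.0623, limma adjusted p = 1.64e-06), and 0.32 (adjusted p = 1.99e-07) without sham 1 to 3. Vps53 did not pass (-0.043, limma adjusted p = 0.35). Vps51 did not pass as deposited (-0.035, limma adjusted p = 0.705) and was -0.24 (adjusted p = 0.00436) with the GC trend removed.

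The ESCRT genes among the members were mostly lower, with 7 of 9 lower and 1 higher as deposited and 6 and 1 with the GC trend removed. The 6 lower genes were lower in both fits, but the higher gene was Chmp4b as deposited (0.10, limma adjusted p = 0.0243) and Vps4b with the trend removed (0.15, adjusted p = 0.00299), where Chmp4b was -0.024 (adjusted p = 0.662). The call of Chmp4b was also lost without sham 2 and without sham 3. The Chmp genes encode the ESCRT-III filaments that constrict and cut membranes, and 5 of 6 were lower. Chmp5 lay between 9.37 and 9.73 in sham (median 9.49) and between 9.15 and 9.49 in HF-HI (median 9.22) (difference -0.28, SE 0.0518, limma adjusted p = 5.3e-05). Chmp2b, in which mutations cause a familial frontotemporal dementia, ran from 8.77 to 9.07 in sham and from 8.52 to 8.84 in HF-HI (difference -0.23, SE 0.0431, limma adjusted p = 6.69e-05). Chmp3 fell by 0.20 (limma adjusted p = 1.14e-04). The groups overlapped for each of these 3 genes. With the GC trend removed they were -0.22, -0.15 and -0.20, all past the threshold. Vps37a, of ESCRT-I, was -0.17 (limma adjusted p = 1.78e-04) and -0.040 (adjusted p = 0.348) with the trend removed.

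The VPS13 genes encode bridges that carry lipids between organelles. Vps13b lay between 11.57 and 11.67 in sham (median 11.61) and between 11.38 and 11.54 in HF-HI (median 11.46), without overlap (difference -0.16, SE 0.0253, limma adjusted p = 9.99e-06). Vps13a fell by 0.27 (limma adjusted p = 1.19e-05), with ranges of 11.37 to 11.72 and 11.14 to 11.41, and Vps13c by 0.11 (limma adjusted p = 3.33e-04). Vps13d, which acts at mitochondria and peroxisomes, rose by 0.20 (SE 0.0334, limma adjusted p = 2.35e-05), from 11.71 to 11.97 in sham to 11.85 to 12.06 in HF-HI. All 4 kept their direction and call with the GC trend removed, at -0.085 for Vps13b, -0.13 for Vps13a, -0.059 for Vps13c and 0.20 for Vps13d. Vps45, which holds the SNAREs of endosomal fusion, fell by 0.24 (limma adjusted p = 1.91e-04), with ranges of 8.66 to 9.02 and 8.40 to 8.78, and was -0.29 with the trend removed.

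No exocyst gene was higher as deposited, and 5 of 9 were lower. Exoc4 (ENSMUSG00000029763, chr6:33249085-33973979 on the plus strand) lay between 10.41 and 10.63 in sham (median 10.46) and between 10.19 and 10.33 in HF-HI (median 10.30). Exoc3 lay between 10.39 and 10.56 in sham (median 10.48) and between 10.18 and 10.36 in HF-HI (median 10.28). Neither gene showed any overlap between groups, and their differences were -0.22 (SE 0.0313, limma adjusted p = 2.34e-06) and -0.20 (SE 0.0310, limma adjusted p = 6.4e-06). Exoc2 fell by 0.22 (limma adjusted p = 1.96e-06), and Exoc1, Exoc2, Exoc3, Exoc4 and Exoc5 lay within a narrow band from -0.22 to -0.20. With the GC trend removed Exoc4, Exoc3 and Exoc2 were -0.10, -0.17 and -0.14 and past the threshold, and Exoc5, the member with the lowest GC content, was -0.034 (adjusted p = 0.290). In that fit 6 exocyst genes were lower and 1 was higher, and 4 were called lower in both fits.

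Other genes of the same pathways, listed by function and outside the symbol rule, gave a partly different picture. The counts of these lists stand beside 32.6% of all genes higher and 33.6% lower. Of 28 further endocytosis and uncoating genes measured, 14 were higher and 6 lower, with a median difference of 0.12. The median was 0.035 with the GC trend removed, with 11 higher and 5 lower, and 0.063 with library medians set equal. Pacsin1, a neuronal F-BAR protein that binds dynamin, lay between 10.03 and 10.92 in sham (median 10.59) and between 11.19 and 11.58 in HF-HI (median 11.37), and the groups did not overlap (difference 0.87, SE 0.0965, limma adjusted p = 8.73e-08). Numbl, an endocytic adaptor, rose by 0.53 (limma adjusted p = 3.05e-08). Of 8 further ESCRT genes 6 were higher and 2 lower, against 1 and 7 of the 9 ESCRT members above. Mvb12b, of ESCRT-I, ran from 8.64 to 9.08 in sham and from 9.36 to 9.66 in HF-HI (difference 0.65, SE 0.0487, limma adjusted p = 3.07e-10), and Hgs, the ESCRT-0 subunit that first binds ubiquitinated cargo, from 8.22 to 8.55 and from 8.70 to 8.90 (difference 0.42, limma adjusted p = 7.98e-09). Both were without overlap and stayed called with the GC trend removed, at 0.55 and 0.19.

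Of 23 further COPI and COPII genes 5 were higher and 10 lower, and 5 and 14 with the GC trend removed. The 2 with the largest differences were both higher: Tmed10, a cargo receptor of the early secretory pathway, by 0.37 (limma adjusted p = 8.36e-08) without overlap, and Arf1, the GTPase that recruits COPI and AP-1, by 0.31 (limma adjusted p = 1.29e-04). Among the 10 lower genes were Sar1a (-0.20, limma adjusted p = 1.78e-05), without overlap, and Sar1b (-0.20, adjusted p = 8.14e-04). With the GC trend removed Sar1a and Sar1b were -0.20 and -0.11, both still called. Of 24 further endosomal sorting genes 7 were higher and 11 lower, and 7 and 8 with the GC trend removed. Gga3, a clathrin adaptor of the Golgi and endosomes, rose by 0.40 (limma adjusted p = 7.86e-06), and Lrp1, a large endocytic receptor, ran from 13.09 to 13.41 in sham and from 13.46 to 13.71 in HF-HI without overlap (difference 0.32, limma adjusted p = 5.08e-07). With the GC trend removed these 2 were 0.26 and 0.11, both called.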

How the data were processed

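The authors made stranded total RNA libraries depleted of ribosomal RNA, aligned reads to mm10 with STAR, counted them per transcript with eXpress and normalized with DESeq2. The authors deposited a table of variance-stabilized log2 values by Ensembl gene and mouse. Its values hold no total depth, and the annotation and the versions of STAR and eXpress are not given in the sources used here. Depth relative to the median library, from the spacing of values, was 0.580 to 1.26 in sham and 0.548 to 1.63 in HF-HI (permutation test, two-sided, p = 0.107). Reads of close paralogs may have been split by the counting.

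Groups were taken from the labels. Symbols (5541 genes) and exonic GC content (5539 genes) came from GENCODE on GRCm38, promoters from RefSeq. The comparison used limma 3.58.1 (R 4.3.3): lmFit, then eBayes with the trend option, with two-sided p adjusted after Benjamini-Hochberg over all 5544 genes and called under 0.05. Paralog balances were tested with 100000 resamples, adjusted over 19 pairs. GC trends were removed per library by lowess with a span of 0.3. Python 3.11.15, numpy 2.4.6, pandas 2.3.3, scipy 1.17.1 and matplotlib 3.10.9 were also used. The fits were checked on made-up data in which 200 of 5544 genes were shifted. Without any GC trend built in, the fit made 7 false calls. With a GC trend between the groups built in, it made 2217, and 6 once that trend was removed. The deposited values hold a GC trend between the groups, so the few false calls of the case without a trend do not carry over to them. The built-in trend was the same straight line in every HF-HI library, with noise independent between genes. Trends of the real libraries differ from each other, so the counts of 2217 and 6 do not carry over either. Alternatives were another threshold, a minimum difference, no eBayes trend, median centring, quantile normalization, dropping the lowest quartile, a replicate block, GC removal, and each library left out. A relative depth covariate and leaving out sham 1 to 3 were added after seeing the data.

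The members and lists were chosen with earlier results of these data known. Named genes were all clathrin, AP-2, dynamin and retromer genes, the 4 largest differences of each class, all members without overlap, and the 2 largest of each further list. Picalm, Amph, Bin1, Sh3gl2, Sec23b, Exoc1, Ap1b1, Ap1s1, Ap1s2, Ap3d1, Ap3s1, Ap3s2, Chmp4b, Vps4b and genes named only within a paralog pair were added after their values were seen. So were Sar1a, Sar1b, Vps8, Vps33a, Vps39 and Vps51.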

Additional observations from a re-analysis of the deposited data

Results flagged for a closer look

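Of the 57 named members, 2 had a sham library far from the other 9, where a check of this kind picks out about 1 in 20 groups by chance. Sham 6 was at 10.78 for Vps50 and the other sham libraries between 10.42 and 10.60, a gap of 0.509 of the whole range. Sham 2 was at 9.38 for Sec22b and the others between 9.13 and 9.25, a gap of 0.496 of the range. Both gaps are over the critical value of Dixon's test, and the HF-HI group of 11 was not examined in this way.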

How the results depend on the processing

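The counts of 27 higher and 44 lower members moved by more than 1.5 times under 1 alternative, an absolute difference of at least 0.25, which gave 8 higher and 10 lower. With each library left out in turn they ran from 24 to 27 and from 42 to 46, and the count of 12 shifted paralog balances from 10 to 13. Dropping the lowest quartile, which also took members out of the test, gave 19 and 38, and the depth covariate 26 and 45. Shares of all genes under the alternatives of this paragraph are not given, so these counts cannot be set against the whole table. The labels do not say whether the replicate numbers pair the mice. Correlations of same-numbered libraries ran from -0.31 to 0.364, with 4 of 10 over 0.1, and 0 sham libraries were closest to their own number. This check cannot decide whether same-numbered mice were handled together. A replicate block gave 25 higher and 42 lower members, and 20 and 40 together with GC removal. With GC removal 12 of the 101 members turned sign, 6 of them called as deposited, and 2 were past the threshold after the turn, Ap3s1 (0.14, limma adjusted p = 0.00852) and Ap1s1 (-0.16, adjusted p = 0.0214). Among the genes named by the fixed rule, signs turned for Dnm2 (-0.083 with GC removal, -0.084 with the block too), Sec63 (0.074 and 0.068), and Sec61a2 (0.014 with the block, 0.056 with GC removal, 0.075 with both, and 0.0033 to 0.027 in 8 of 21 leave-one-out fits, which ran down to -0.026). With GC removal the balances of Ap1s1/Ap1s2 (-0.19), Ap3m1/Ap3m2 (0.039), Ap3s1/Ap3s2 (0.060) and Sec61a1/Sec61a2 (-0.029) turned, and without sham 1 to 3 that of Ap3b1/Ap3b2 (-0.030). The cause was not tested. Total depth is unknown, so precision rests on the spread between mice.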
